A study of Ovis aries with 10 samples.

Results

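Exonic circular RNAs built from 6 or more exons and drawn from a stretch of genome shorter than 50000 bp were examined in sheep muscle libraries. The members were taken by a rule on structure alone: an entry in at least 1 library of the series, an exonic annotation, 6 or more exon blocks in the deposited block list, and a genomic span under 50000 bp. Of 8721 circRNAs listed in the series, 7926 were exonic and 43 met the rule, which is 0.543% of the exonic ones. The 43 came from 37 host genes on 18 chromosomes, all protein coding in the gene table used for names, with 25 on the plus and 18 on the minus strand. The libraries come from female small-tailed Han sheep per the series text, 5 of them sham-operated and 5 ovariectomized, that is, with the ovaries removed, and the series text states the aim as the effect of estrogen on female muscle growth. No other genotype, age or agent is assigned to any library. The labels name both longissimus dorsi, a back muscle, and primary myoblasts grown in culture with added estradiol, without saying which gave the RNA or giving a dose for any sample. Nothing in them ties each library to its own animal, so a p-value measures the spread between these libraries, which may be technical.

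A circRNA forms when the spliceosome joins the end of a downstream exon back to the start of an upstream one, leaving a closed loop with no cap and no poly(A) tail. Loops lack free ends, are protected from exonucleases and can last longer than the linear RNA of the same gene. Most known loops hold a few internal exons, and muscle and brain are tissues in which many have been described. Reads that cross the back-splice are called junction reads here, and they are the only reads that prove a loop in such a table. The block list names the exons assigned to a loop. Whether reads covered every block or the inner exons were inferred from annotation is not given in the sources used here.

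The libraries held between 35731 and 67061 junction reads, the highest in ovariectomized replicate 5, and listed between 2559 and 3543 circRNAs each. A listed entry has at least 2 reads. Of 13 genes that mark muscle fibers, 11 hosted a circRNA, against 1 of 5 satellite cell and myoblast genes and none of the 4 proliferation, 4 immune or 4 Schwann cell genes examined. Endothelial genes hosted one in 4 of 6 cases, adipocyte genes in 2 of 4, smooth muscle and pericyte genes in 2 of 5 and fibroblast genes in 1 of 6. Among all of these markers only TTN and NEB, the genes of the giant sarcomere proteins titin and nebulin, hosted a many-exon loop. Hosting depends on gene structure as well as expression, so these counts do not measure cell content.

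The many-exon loops were long once spliced but drawn from modest stretches of genome. Their spliced length had a median of 530 bp and ran from 394 to 856 bp. Their genomic span had a median of 16792 bp and ran from 4599 to 48894 bp, so that exons made up a median of 3.49% of the span. For comparison, the 6040 exonic circRNAs of 2 to 5 blocks under the same span limit had medians of 317 bp spliced and 7834 bp of span. More blocks give more length by construction, but the blocks themselves were shorter. The 266 blocks of the 43 loops had a median of 83 bp, from 24 to 305 bp, against 114 bp for the blocks of circRNAs with 2 to 5 of them and 148 bp for single-exon circRNAs. Over exonic circRNAs of 1 to 6 blocks the median of the mean block length was lower at each step, from 148, 136, 113 and 101 to 94.6 and 85.8 bp, with no test made of this series.

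**Figure D1:**
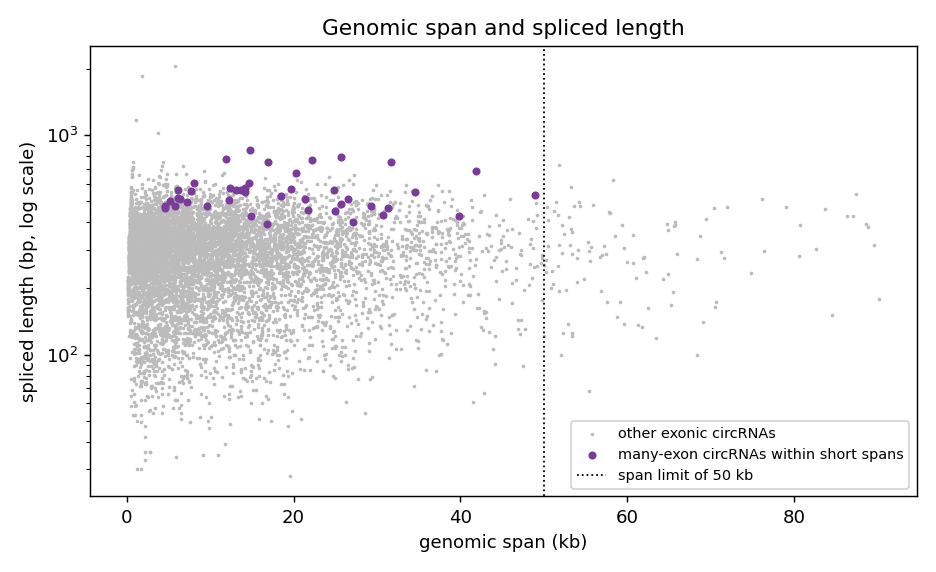
Genomic span in kb (x axis) against spliced length in bp on a log scale (y axis) for exonic circRNAs, with the 43 many-exon circRNAs in purple, the others in gray and the span limit as a dotted line. The purple points lie at 394 bp and above at every span, while gray points reach down to 28 bp.

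Of the 43 loops, 38 had 6 blocks, 2 had 7 and 3 had 8. The 3 with 8 blocks came from TTC3 (novel_circ_0001276, 774 bp in a span of 22187 bp), a ubiquitin ligase gene, from AP1AR (novel_circ_0007302, 560 bp in 13683 bp), a regulator of the AP-1 clathrin adaptor, and from ASPH (novel_circ_0009670, 402 bp in 27124 bp), the aspartate beta-hydroxylase gene that also encodes junctin of the muscle triad. The ASPH loop had the shortest blocks on average, at 50.2 bp. The 2 with 7 blocks came from VPS50 and AIDA. The longest spliced loops were those of PUM2 at 856 bp, AGTPBP1 at 798 bp, SUN1 at 782 bp, TTC3 at 774 bp and UBE3A at 753 bp. The shortest were those of FANCL at 394 bp, ASPH at 402 bp, AIDA (novel_circ_0011224) at 428 bp, LOC101108695 at 429 bp and CACNA2D3 at 431 bp.

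Of the 5 loops with the smallest spans, 4 lay in genes of the sarcomere. The smallest span was that of the TTN circRNA novel_circ_0002475, which packs 468 bp of exon into 4599 bp (chromosome 2, 131482710 to 131487308, plus strand), so that 10.2% of its span is exon. Another TTN loop, novel_circ_0002437, spans 4614 bp, followed by that of the phospholipid flippase gene ATP8B1 at 5202 bp, the TTN loop novel_circ_0002444 at 5781 bp and the NEB loop novel_circ_0002929 at 6196 bp. At the other end, just inside the limit were the loops of PICALM at 48894 bp, STAU2 at 41859 bp and LOC101108695 at 39817 bp. Just outside were those of MICU3 at 51492 bp, MINDY3 at 51746 bp and ARHGAP10 at 58305 bp, and only 4 loops of 6 or more blocks exceeded the limit. Those 3 nearest outside had 343, 521 and 134 reads, and the 3 nearest inside 118, 373 and 265.

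The spliced length was a multiple of 3 in 19 of the 43 loops (44.2%) and in 38.2% of exonic circRNAs of 2 to 5 blocks, a difference that was not tested. All 5 TTN loops were among the 19. Coordinates are those of the deposited files, whose genome build is not given in the sources used here, with starts counted from 1.

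Many-exon loops carried more junction reads than loops of fewer exons. Summed over the 10 libraries, the 43 loops held 12029 junction reads with a median of 138 per loop, against a median of 12 for circRNAs of 2 to 5 blocks and 7 for single-exon ones under the same span limit. The medians were higher at each step in the number of blocks, from 7 at 1 block through 9, 14, 26 and 56 to 131.5 at 6. Within each library the median reads of a listed many-exon loop, 14 to 28, lay above the median for 2 to 5 blocks, 5 to 9, in 10 of 10 libraries. Members of 1 host share exons and libraries share members, so this is a description with no test. Among circRNAs that passed the filter of the group comparison the gap was much smaller. The median was 288 reads for the 25 many-exon loops and 200 for the 607 circRNAs of 2 to 5 blocks. That filter selects on read number, so a smaller gap is partly built in. It kept 58.1% of the many-exon loops and 10.0% of the circRNAs of 2 to 5 blocks.

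**Figure D2:**
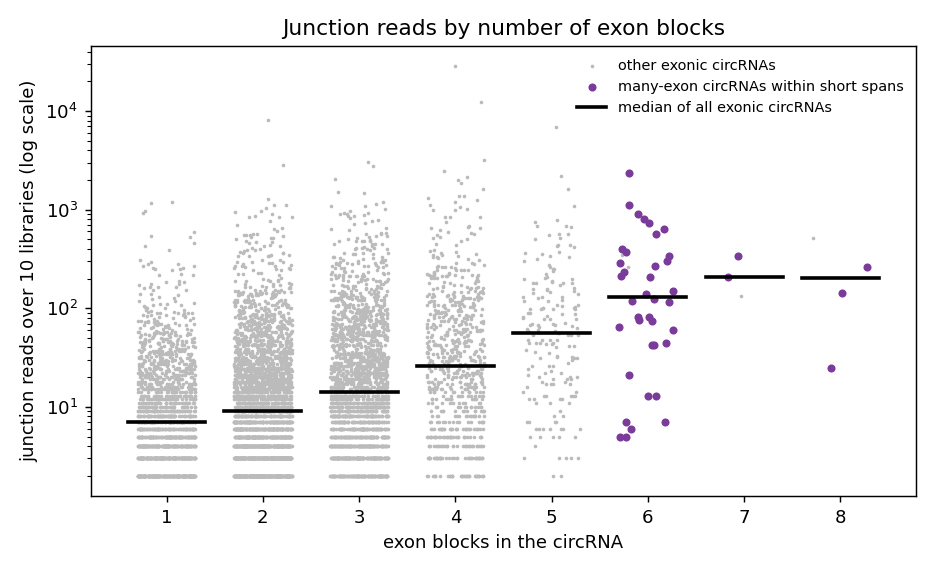
Junction reads over the 10 libraries (y axis, log scale) by number of exon blocks (x axis, points spread sideways) for each exonic circRNA, with the 43 many-exon circRNAs in purple and black bars at the median of all exonic circRNAs of that block number. The bars run from 7 reads at 1 block to 131.5 at 6 blocks.

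Non-junction reads, which the table counts beside the junction reads and which the sources used here do not define, were fewer per junction read for the many-exon loops. The median was 7.35 non-junction reads per junction read, against 24.4 for circRNAs of 2 to 5 blocks. The library medians, 3.71 to 8.38 for the many-exon loops and 12.2 to 27.2 for 2 to 5 blocks, were lower for the many-exon loops in 10 of 10 libraries. Among circRNAs that passed the filter the gap was smaller, 4.62 against 6.79. The loops spread widely around their median, with 15 under 5 and 7 over 100. The lowest ratio, 0.746, was that of the AIDA loop novel_circ_0011224, whose junction reads outnumbered its non-junction reads in 9 of 10 libraries, sham replicate 2 being the other one. All 7 above 100 came from 3 genes of muscle structure: the 5 TTN loops had 289 to 602 non-junction reads per junction read, the NEB loop 156, and that of ASPH, a triad gene, 118.

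Listing was also frequent. Of the 43 loops, 23 (53.5%) were listed in all 10 libraries and 6 (14.0%) in a single one, against 11.3% and 33.2% of circRNAs of 2 to 5 blocks. Exonic circRNAs of 5 blocks alone, of any span, were closer, at 33.7% and 9.78%, so single-library listing was no rarer in the 43. Of the 4 loops of 6 or more blocks beyond the span limit, 3 were listed in all 10 libraries and 0 in a single one. Another 7 were listed in 7 to 9 libraries and 7 in 2 to 6. Across the 43 loops total reads and number of libraries had a Spearman rho of 0.784, a description over loops that share libraries. Each listing adds at least 2 reads to the total, so both measures are tied by construction. Total reads had a rho of 0.328 with spliced length and 0.147 with span over the same 43 loops.

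**Figure D3:**
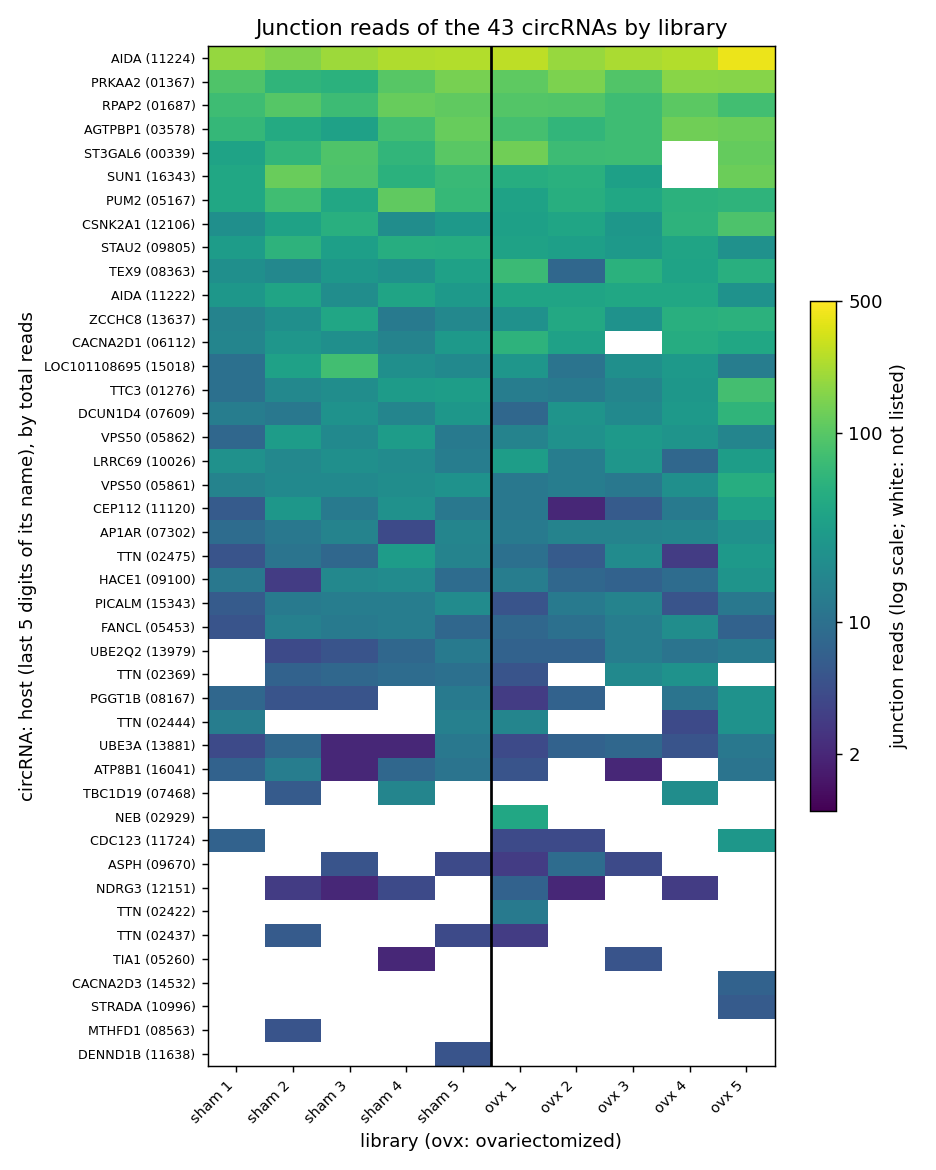
Junction reads (color, log scale) of each of the 43 circRNAs (rows, by total reads) in the 5 sham and 5 ovariectomized libraries (columns), white where the circRNA is not listed. The upper rows are filled across both groups except for single white cells of ST3GAL6, SUN1 and CACNA2D1, and the lowest rows hold reads in 1 to 6 libraries.

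Reads were concentrated in a few loops. The AIDA loop alone held 19.8% of the 12029 reads, the 4 with the most reads 43.3% and the 10 with the most reads 68.7%. Within their genes the many-exon loops were often the main circRNA: in 17 of the 32 hosts with more than 1 listed circRNA a many-exon loop had the most reads, and in 5 more hosts it was the only one listed, namely AP1AR, FANCL, CDC123, NDRG3 and STRADA. The median share of the host's junction reads was 42.2%. It reached 91.8% for PUM2, 90.5% for SUN1 and 88.0% for RPAP2, and was lowest for 2 TTN loops at 0.102% each.

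Most of the loops reuse a splice site of another loop. Of the 43, 19 shared their first and 25 their last genomic base with another listed circRNA of the same host, and 34 shared at least one of these. In AIDA, novel_circ_0011222 (7 blocks, 34585 bp) contains all 6 blocks of novel_circ_0011224 (14935 bp) and has the same last base on the genome, chromosome 12, 25432285. The longer one had 335 junction reads and the shorter 2378. In VPS50, whose product belongs to an endosomal recycling complex, 2 loops start at the same base, chromosome 4, 11400646, and share their first 4 blocks. One, novel_circ_0005861, continues with 3 more blocks to 11408354. The other, novel_circ_0005862, omits those 3 blocks and joins 2 farther ones, ending at 11425540. Their total reads were close, 207 and 211. In 9 of the 43 loops at least 1 block of another circRNA inside the span overlapped no block of the loop, with 14 such blocks in PICALM, a gene of clathrin assembly, so the block lists are not simply every exon between both ends.

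TTN gave 5 of the 43 loops, more than any other host, and AIDA and VPS50 gave 2 each. The 5 TTN loops held 320 of the 12696 junction reads of the 125 TTN circRNAs. They had 138, 82, 74, 13 and 13 reads. The most listed, novel_circ_0002475, had 5, 11, 8, 31 and 16 reads from the sham libraries, replicates 1 to 5, and 10, 6, 20, 3 and 28 from those of the ovariectomized group. It shares no block with the other 4, of which novel_circ_0002444 shares 4 blocks with novel_circ_0002437 and 3 with novel_circ_0002422. The NEB loop was listed in ovariectomized replicate 1 alone, with 42 reads, and so was novel_circ_0002422 of TTN, with 13.

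The group comparison covered the 25 loops that passed the filter, at least 5 libraries with 10 reads scaled to the median library. These 25 held 94.4% of the reads of the 43. No many-exon loop differed between ovariectomized and sham libraries at an adjusted p under 0.05 in limma voom, where 0 of the 738 circRNAs tested passed (0%). Adjusted p-values of the 25 ran from 0.781 to 0.946. In bulk RNA fewer cells of a type and less RNA per cell cannot be told apart. At an unadjusted p under 0.05 there were 2, both lower after ovariectomy, which is 8% of 25 against 5.69% of all 738. With library totals as the only scaling neither kept an unadjusted p under 0.05, and the 1 loop that had one, that of ZCCHC8, was higher (log2 fold change 0.70 ± 0.32, SE). Over all 738 circRNAs 39 had one under that scaling. Limma trend on log2 values also gave 0 calls and 2 at an unadjusted p under 0.05, beside 41 and 40 of the 738 with pseudocounts of 1 and 0.5. Fitted log2 fold changes were negative for 17 loops and positive for 8, with a median of -0.26, beside -0.04 and 52.4% negative over all 738. With library totals alone the split was 14 and 11 and the medians were -0.09 for the loops and 0.14 for all tested. The loops' median thus stayed negative and below that of all tested, while its size and the split depended on the scaling. The normalized reads of the groups overlapped for all 25, while they were separate for 1.36% of the 738. Standard errors of the 25 ran from 0.16 to 1.41 with a median of 0.39. For 22 of the 25, all but PUM2, ZCCHC8 and PICALM, leaving out 1 library moved the log2 fold change by more than 1.5 times or turned its sign. A value near 0 meets this ratio easily. The AIDA loop novel_circ_0011224, at 0.07 ± 0.16 (SE), counts among the 22 with values from 0.0252 to 0.17. The same count was not made over the 738.

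**Figure D4:**
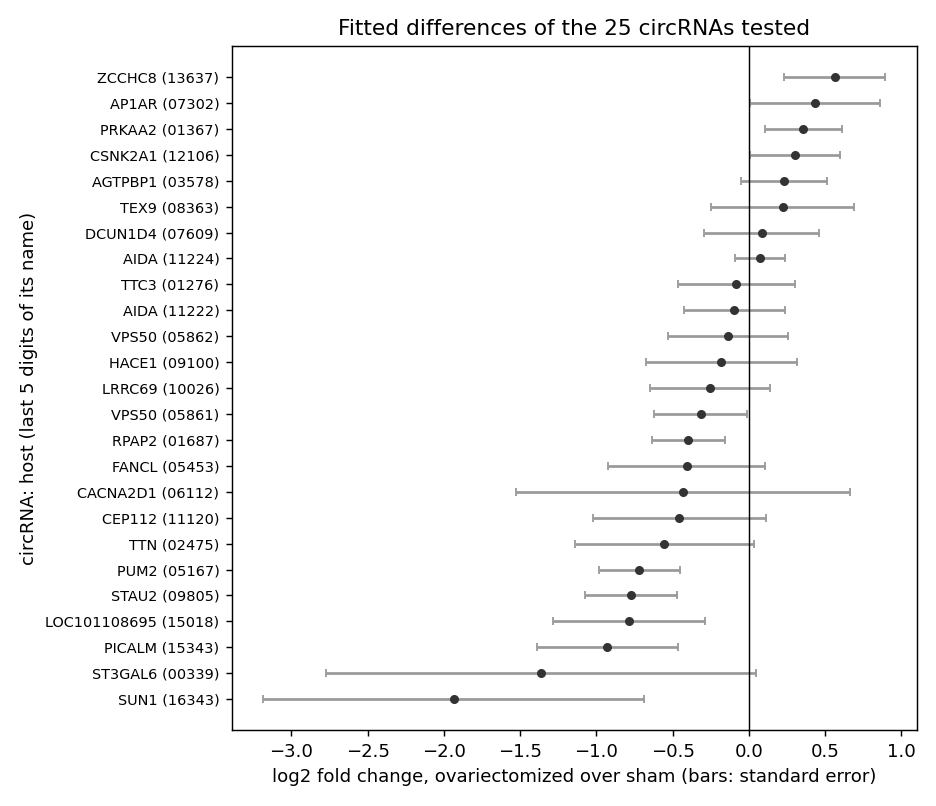
Fitted log2 fold change of ovariectomized over sham libraries (x axis, points with standard errors as bars) for each of the 25 circRNAs tested (rows). The points run from -1.94 for SUN1 to 0.56 for ZCCHC8, and the widest bars belong to circRNAs with no entry in 1 ovariectomized library.

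The 2 loops with an unadjusted p under 0.05, neither of which kept it with library totals as the only scaling, come from genes of RNA-binding proteins, PUM2 and STAU2. PUM2 encodes a Pumilio protein that binds the 3' ends of target mRNAs and represses their translation. Its loop novel_circ_0005167 (chromosome 3, 28192331 to 28207122, minus strand) had 41, 74, 42, 109 and 65 junction reads from the sham libraries, replicates 1 to 5, and 36, 49, 41, 54 and 57 from those of the ovariectomized group. Normalized reads are junction reads divided by the relative scaled library size. They came to 72.1 ± 25.7 for sham and 42.5 ± 6.18 for ovariectomized libraries (SD, n = 5 in each group). Ovariectomized values were tightly grouped between 35.3 and 49.8, and the lowest sham value, 45.3, fell inside that range. That is -0.72 ± 0.26 (SE) as a log2 fold change, and the adjusted p from limma was 0.781. With library totals alone it was -0.54 ± 0.31 (SE), and without sham replicate 4, the highest library, it was -0.52 and the unadjusted p was no longer under 0.05. PUM2 had 2 further circRNAs, and the loop held 91.8% of its reads.

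STAU2 encodes a double-stranded RNA-binding protein of RNA transport. Its loop novel_circ_0009805 (chromosome 9, 49984283 to 50026141, minus strand) had 31, 56, 33, 48 and 47 junction reads from sham libraries and 36, 33, 28, 38 and 23 from ovariectomized ones. Normalized reads were 47.6 ± 12.1 and 29.5 ± 8.95 (SD, n = 5 in each group), which is -0.77 ± 0.30 (SE) as a log2 fold change, and the adjusted p from limma was 0.781. With library totals alone it was -0.60 ± 0.32 (SE). Without ovariectomized replicate 5 it was -0.46, and the unadjusted p was no longer under 0.05 there or without sham replicate 2. The groups overlapped through 1 sham library at 35.6 and 1 ovariectomized library at 37.2. A circRNA of 2 blocks with the same start, novel_circ_0009801, had far more reads, 2829 in all, and in ovariectomized replicate 5 both were at their lowest, with 82 and 23 reads. The authors' deposited table also gives these 2 of the 43 a p under 0.05, 0.007 for PUM2 and 0.0261 for STAU2, each with an adjusted p of 0.966, beside 1.35% of all 8721 circRNAs with such a p. The 8721 had a median of 10 junction reads in all and the 43 a median of 138, so these sets are unlike in depth.

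**Figure D5:**
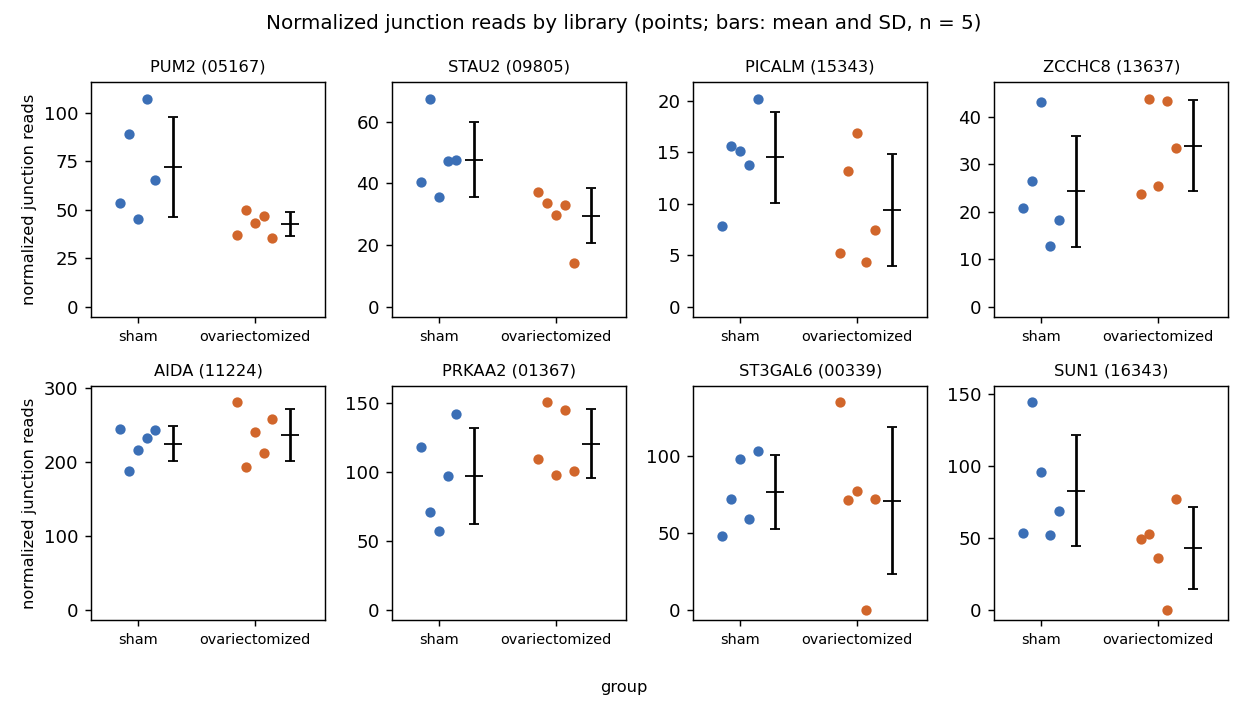
Normalized junction reads (y axis) in each library (points) with the mean and SD of each group of 5 (black), for the 4 circRNAs with the smallest p and 4 of those with the most reads. PUM2 and STAU2 are lower after ovariectomy with overlap, AIDA overlaps throughout, and ST3GAL6 and SUN1 have 1 ovariectomized library at 0.

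The next smallest p-values on the lower side belonged to PICALM, RPAP2 and LOC101108695, none past the threshold. The PICALM loop novel_circ_0015343 (chromosome 21, 9084372 to 9133265) had 6, 13, 14, 14 and 20 reads from sham libraries and 5, 13, 16, 5 and 12 from ovariectomized ones. On the log2 scale the difference was -0.93 ± 0.46 (SE), at an adjusted p of 0.781 in limma. RPAP2 encodes a phosphatase of the RNA polymerase II tail. Its loop novel_circ_0001687 (chromosome 1, 69588426 to 69602665) had 72, 98, 70, 117 and 109 reads from sham libraries and 94, 92, 72, 105 and 77 from ovariectomized ones. Raw reads were similar between the groups, and the log2 fold change was -0.40 ± 0.24 (SE). It was -0.16 without ovariectomized replicate 5. LOC101108695 has the symbol MLIP in the gene table, a muscle-enriched gene whose product binds lamin. Its loop novel_circ_0015018 (chromosome 20, 6431647 to 6471463) had 10, 35, 77, 22 and 19 reads from sham libraries and 26, 11, 22, 29 and 14 from ovariectomized ones. Sham replicate 3 stood highest, and the log2 fold change of -0.79 ± 0.50 (SE) was -0.37 without it.

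On the higher side the smallest p-values were those of ZCCHC8, PRKAA2, CSNK2A1, AP1AR and AGTPBP1, with limma adjusted p-values from 0.802 to 0.915. ZCCHC8 encodes a scaffold of the complex that directs nuclear RNA to the exosome. Its loop novel_circ_0013637 (chromosome 17, 52987094 to 52995179) had 16, 22, 40, 13 and 18 reads from sham libraries and 23, 43, 24, 50 and 54 from ovariectomized ones, a log2 fold change of 0.56 ± 0.33 (SE). The sham library with 40 reads lay among the upper ovariectomized values. AP1AR was at 0.43 ± 0.43 (SE). It had 9, 12, 16, 4 and 17 reads from sham libraries and 13, 16, 16, 17 and 23 from ovariectomized ones, and without sham replicate 4, which had 4 reads, its log2 fold change was -0.0176.

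Both kinases on the gene list of kinases and phosphatases that hosted a many-exon loop were tested, and neither passed. PRKAA2 encodes a catalytic subunit of AMPK, the energy-sensing kinase of muscle. Its loop novel_circ_0001367 (chromosome 1, 31225915 to 31242847) had 91, 59, 53, 99 and 141 reads from sham libraries and 106, 148, 93, 167 and 163 from ovariectomized ones. Normalized reads were 97.3 ± 34.6 and 120.8 ± 24.95 (SD, n = 5 each), with wide overlap and a log2 fold change of 0.36 ± 0.25 (SE), which was 0.21 without sham replicate 3. Within PRKAA2 a 4-block circRNA with the same end, novel_circ_0001369, had 1372 reads against 1120. CSNK2A1 encodes a catalytic subunit of casein kinase 2. Its loop novel_circ_0012106 (chromosome 13, 60207834 to 60220937) had 22, 36, 50, 21 and 29 reads from sham libraries and 34, 39, 27, 55 and 89 from ovariectomized ones, a log2 fold change of 0.30 ± 0.30 (SE). It was 0.15 without sham replicate 4 and 0.50 without sham replicate 3.

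AIDA, whose product binds the Wnt scaffold axin, gave the many-exon loop with the most reads in every library. Novel_circ_0011224 (chromosome 12, 25417351 to 25432285, minus strand) had 188, 156, 201, 237 and 242 junction reads from sham libraries and 272, 190, 228, 246 and 418 from ovariectomized ones. Normalized reads were 225 ± 23.9 and 237 ± 35.0 (SD, n = 5 each), with a log2 fold change of 0.07 ± 0.16 (SE) and the smallest standard error of the 25. Leaving out 1 library gave 0.0252 (without ovariectomized replicate 1) to 0.17 (without ovariectomized replicate 2). It made up 14.4% to 22.6% of the many-exon reads of a library. The longer AIDA loop novel_circ_0011222 had 27, 38, 21, 38 and 29 reads from sham libraries and 38, 38, 41, 41 and 24 from ovariectomized ones. On the log2 scale the difference was -0.10 ± 0.33 (SE), and 0.26 without ovariectomized replicate 5.

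AGTPBP1 encodes a carboxypeptidase that trims glutamates from tubulin. Its loop novel_circ_0003578 (chromosome 2, 34025877 to 34051510) had 62, 45, 35, 76 and 119 reads from sham libraries and 80, 60, 72, 130 and 125 from ovariectomized ones, a log2 fold change of 0.23 ± 0.28 (SE). It was 0.0391 without sham replicate 3 and 0.45 without sham replicate 5. TEX9 gave novel_circ_0008363 (chromosome 7, 52166481 to 52184973), with 22, 18, 27, 23 and 35 reads from sham libraries and 69, 8, 53, 37 and 50 from ovariectomized ones. The sham values lay inside the ovariectomized range, whose spread in normalized reads was 24.5 (SD, n = 5) against 5.55 in sham. Its log2 fold change was 0.22 ± 0.47 (SE), and -0.0283 without ovariectomized replicate 1.

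In 3 well-covered loops 1 ovariectomized library had no entry. ST3GAL6, a sialyltransferase gene of the Golgi, gave novel_circ_0000339 (chromosome 1, 163987682 to 163999990). It had 37, 60, 91, 60 and 102 reads from sham libraries and 130, 70, 73 and 116 from ovariectomized replicates 1, 2, 3 and 5, with none in replicate 4. Its log2 fold change of -1.36 ± 1.41 (SE) turned to 0.24 without that library. SUN1, whose product ties the nuclear lamina to the cytoskeleton, gave novel_circ_0016343 (chromosome 24, 42210054 to 42221953). It had 41, 120, 89, 53 and 68 reads from sham libraries and 48, 52, 34 and 125 from ovariectomized replicates 1, 2, 3 and 5, again with none in replicate 4. Its log2 fold change of -1.94 ± 1.25 (SE) was -0.47 without that library. In ovariectomized replicate 4 the other ST3GAL6 circRNAs that share an end with the loop had 6 reads (novel_circ_0000341) and no entry (novel_circ_0000338 and novel_circ_0000335), and the SUN1 circRNA that does, novel_circ_0016344, had 9 reads. The reason for the missing entries was not tested.

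The third such loop is novel_circ_0006112 of CACNA2D1 (chromosome 4, 40053630 to 40075332), which encodes the auxiliary calcium channel subunit found in the muscle triad. It had 17, 26, 22, 16 and 28 reads from sham libraries and 56, 35, 47 and 41 from ovariectomized replicates 1, 2, 4 and 5, with no entry in replicate 3. Its log2 fold change of -0.43 ± 1.09 (SE) turned to 0.68 without that library. Of the list of contractile, sarcomere and triad genes, 56 of 87 hosted a circRNA and 5 a many-exon loop, CACNA2D1, MLIP, TTN, NEB and ASPH. The loops of the first 3 were tested and 0 passed, with TTN at -0.55 ± 0.59 (SE). That value was -1.12 without ovariectomized replicate 5 and -0.12 without ovariectomized replicate 4.

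In the list of ubiquitin and SUMO genes 71 of 99 hosted a circRNA and 3 a many-exon loop, and 2 were tested without passing. The list does not hold TTC3, FANCL and UBE2Q2, ubiquitin genes that also hosted a many-exon loop. DCUN1D4, a gene of cullin neddylation, gave novel_circ_0007609, with 14, 12, 24, 17 and 27 reads from sham libraries and 8, 25, 19, 28 and 58 from ovariectomized ones. Its log2 fold change was 0.08 ± 0.38 (SE), and -0.12 without ovariectomized replicate 5. HACE1, a ubiquitin ligase gene, gave novel_circ_0009100, with 3 to 20 reads in sham and 7 to 25 in ovariectomized libraries and a log2 fold change of -0.18 ± 0.49 (SE). It passed the filter in 5 of the 10 sets with 1 library left out, with values from -0.43 (without sham replicate 2) to -0.00829 (without ovariectomized replicate 4). The third, UBE3A, encodes the ubiquitin ligase lost in Angelman syndrome. Its many-exon loop novel_circ_0013881 (chromosome 18, 1648167 to 1679847) was listed in all 10 libraries with 2 to 12 reads each, 64 in all and under the filter. It ends at the same base as novel_circ_0013887, the main UBE3A circRNA, which had 12408 reads.

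In membrane traffic, 60 of 84 list genes hosted a circRNA and 2 a many-exon loop, PICALM and VPS50. The VPS50 loop novel_circ_0005861 had 16, 19, 19, 21 and 24 reads from sham libraries and 12, 14, 12, 22 and 48 from ovariectomized ones. Novel_circ_0005862 had 8, 31, 19, 31 and 13 in sham and 16, 23, 28, 25 and 17 in ovariectomized libraries. Log2 fold changes were -0.32 ± 0.31 and -0.14 ± 0.39 (SE), and without ovariectomized replicate 5 they were -0.54 and 0.15. The pair did not rank the libraries alike: ovariectomized replicate 5 held the highest count of the first and one of the lower counts of the second.

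The remaining tested loops had adjusted p-values of 0.915 to 0.946 in limma. CEP112, a centrosome gene and the 1 many-exon host among 107 cytoskeleton, centrosome and motor genes, had 6 to 27 reads in sham and 2 to 35 in ovariectomized libraries, and a log2 fold change of -0.46 ± 0.57 (SE), which was -1.10 without ovariectomized replicate 5 and -0.21 without sham replicate 2. FANCL, the ubiquitin ligase gene of the Fanconi anemia pathway, had 5 to 15 and 7 to 21 reads and a log2 fold change of -0.41 ± 0.51 (SE). TTC3 had 10 to 32 reads in sham and 13 to 79 in ovariectomized libraries, with -0.08 ± 0.38 (SE), and LRRC69 had 14 to 23 and 8 to 32, with -0.26 ± 0.39 (SE). The sign turned for FANCL without ovariectomized replicate 5 (0.14), for LRRC69 without ovariectomized replicate 4 (0.13) and for TTC3 without any of 4 libraries, at most to 0.097 without ovariectomized replicate 2. Of the other lists, a many-exon loop was hosted by 2 of 110 RNA binding genes (PUM2 and STAU2) and 2 of 110 small GTPase genes (DENND1B and TBC1D19). It was hosted by 0 of 89 chromatin genes and 0 of 83 energy and lipid genes. Some circRNA was hosted by 78 RNA binding, 76 small GTPase, 69 chromatin, 41 energy and lipid and 74 cytoskeleton, centrosome and motor genes. Over the whole series, 37 of 3436 host genes gave a many-exon loop, and no list was tested against that share.

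The 18 loops under the filter had 5 to 82 reads in all. UBE2Q2, a ubiquitin-conjugating enzyme gene, had 82 reads in 9 libraries. PGGT1B, which encodes a subunit of the enzyme that attaches geranylgeranyl groups to small GTPases, had 76 in 8. ATP8B1 had 7, 14, 2, 8 and 11 reads from sham libraries and 5, 2 and 11 from ovariectomized replicates 1, 3 and 5, with no entry in replicates 2 and 4. TBC1D19 was listed in 3 libraries, sham replicates 2 and 4 and ovariectomized replicate 4, with 6, 17 and 21 reads. CDC123, an assembly factor gene of a translation initiation complex, had 42 reads in 4 libraries, 27 of them in ovariectomized replicate 5. ASPH had 25 reads in 5 libraries and NDRG3 had 21 in 6. TIA1, the gene of a stress granule protein, had 2 and 5 reads in 2 libraries. Single libraries listed CACNA2D3 with 7 reads, STRADA with 6, and MTHFD1 and DENND1B with 5 each. No direction is read from loops with so few entries. None of the 18 had separate groups, but a loop missing from a library of each group could not have had them. The share with separate groups among all circRNAs under the filter is not given.

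The share of junction reads held by the many-exon loops overlapped between the groups. It was 2.25%, 3.02%, 2.14%, 2.90% and 2.89% for sham replicates 1 to 5 and 3.15%, 2.58%, 2.67%, 2.67% and 2.78% for ovariectomized replicates 1 to 5. The means were 2.64% ± 0.413 and 2.77% ± 0.224 (SD, n = 5 each), a difference of 0.129 percentage points that is smaller than either spread. Leaving the SENP6 circRNA novel_circ_0008968, which 4 of the 10 libraries do not list, out of the denominator turned the difference to -0.0899. Each library listed 30 to 37 of the 43, 32.4 ± 1.67 for sham and 32.2 ± 2.95 for ovariectomized libraries (SD, n = 5 in each group). No p is given for these sums, since the loops were chosen with earlier results of these data known.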

How the data were processed

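Total RNA libraries of the 5 sham and 5 ovariectomized samples were grouped by sample title. The submitters' processing notes list HISAT2. No version, circRNA caller, genome build or annotation is given in the sources used here. In the deposited table each circRNA has whole-number counts of junction and non-junction reads packed in lists beside sample names, with span and spliced length. The packed lists are not plain count columns, so limma voom was used on the unpacked counts. Entries under 10 other sample names, which match no label, were left aside. A library without an entry was entered as 0. The second table holds, per the file headers, the authors' mean read signal per group with a log2 fold change (sham divided by ovariectomized), its p-value and the adjusted one. Only those p-values are printed, as the authors'.

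Members, lists and the naming rule were chosen with earlier results of these data known. The text names tested circRNAs with the 5 smallest p in each direction, the 10 with the most reads, the extremes of blocks, length and span, the hosts with the most members and list hosts. Names, biotypes and chromosome numbers came from the ARS-UI_Ramb_v3.0 gene table, in which all 43 host IDs were found.

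The fit (limma 3.58.1, R 4.3.3, statmod 1.5.0) covered all 738 circRNAs with at least 5 libraries at 10 reads scaled to the median library and 15 reads in all. It used trimmed mean of M values scaling over these circRNAs (30% of log ratios and 5% of abundances trimmed), a model with group alone, robust moderation of the variances and adjustment by Benjamini-Hochberg over all 738, with a threshold of 0.05. The functions were tested on simulated counts. Alternatives covered scaling, filter, variance model, limma trend with pseudocounts of 1 and 0.5, a replicate block, the structural limits and leaving out each library.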

Additional observations from a re-analysis of the deposited data

Results flagged for a closer look

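Among 54 groups of 5 values examined for a library far from the others, 2 stood out, where chance alone flags about 1 in 20 groups. Both concern ovariectomized replicate 5, the library with the most junction reads. For the longer AIDA circRNA novel_circ_0011222 it had 14.9 normalized reads against 35.5 to 43.3 in the other 4 ovariectomized libraries. For the TTC3 circRNA novel_circ_0001276 it had 49.0 normalized reads against 13.2 to 23.4. One value is low and the other high, so they do not move together in that library.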

How the results depend on the processing

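No many-exon circRNA passed the threshold under any alternative run, with 0 calls in each, including an adjusted p of 0.10, both other scalings, both other filters (33 and 43 many-exon circRNAs tested), limma trend, non-robust variances and each library left out. With the replicate number as a block the count was also 0, although 3 of 738 circRNAs passed. Deviations of same-numbered libraries from their group means had correlations of 0.0686, 0.185, 0.0524, 0.119 and -0.11. Those of differently numbered libraries ran from -0.201 to 0.171, a range that holds all of these but 0.185. The numbers are not taken to pair the libraries. Over all circRNAs 4 of 2690 and 30 of 8721 passed under the other filters. At an unadjusted p under 0.05 in limma voom there were 3 of 33 and 5 of 43 many-exon ones, beside 213 of 2690 and 540 of 8721 over all. Among 200 fitted values of single circRNAs, 194 kept their sign, including those under non-robust variances, which cannot change it. The others were ST3GAL6 (0.0379) and CACNA2D1 (0.61) under the block, novel_circ_0011222 of AIDA (0.0828), TTC3 (0.0833) and novel_circ_0005862 of VPS50 (0.0586) with library totals alone, and TTC3 (0.0545) with no filter; the cause was not tested. When each library was left out in turn, 17 of 245 values changed sign, in 10 circRNAs. Their log2 fold changes ran from -1.88 to 0.24 for ST3GAL6, -0.0283 to 0.70 for TEX9, -0.20 to 0.26 for novel_circ_0011222, -0.60 to 0.68 for CACNA2D1, -0.42 to 0.10 for TTC3, -0.12 to 0.39 for DCUN1D4, -0.33 to 0.15 for novel_circ_0005862, -0.45 to 0.13 for LRRC69, -0.0176 to 0.67 for AP1AR and -0.76 to 0.14 for FANCL. With 5 or more blocks there were 223 circRNAs, and the differences of ovariectomized minus sham were 0.793 percentage points in share of reads (9.50% and 10.3%) and 2.2 in number listed. The depth limits the 18 untested circRNAs, which had at most 82 reads over 10 libraries.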
